A study of Mus musculus with 18 samples.

Results

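The 5 genes of the beta-2 integrin family described here are Itgb2 and its alpha partners Itgam, Itgax, Itgal and Itgad. They were taken by symbol from a count table of 23337 genes, all 5 were found, and all 5 were among the 17143 genes that passed the filter on low counts. The libraries came from live CD45-positive cells of digested aortas and carotid arteries, sorted by 2 fluorescent reporters. YFP cells carried YFP without GFP (n = 5), DP cells carried both (n = 4), GFP cells carried GFP without YFP (n = 6) and DN cells carried neither (n = 3). All 4 subsets came from male and female C57BL/6 mice with the genotype Apoe-/- Cx3cr1GFP Cd11cYFP, aged 7 months with 5 months of Western diet, so the controls lack Apoe and carry the reporters too. Apoe clears lipoproteins from blood, and its loss with a Western diet is a common model of atherosclerosis. GFP reports Cx3cr1, a chemokine receptor that monocytes and macrophages carry for fractalkine, and YFP reports Cd11c, the protein of Itgax, so Itgax is tied to the sort and its level is not independent of it. The labels do not say whether the mice had 1 or 2 copies of the Cx3cr1GFP allele, how many mice made up a library, or whether libraries with the same number share mice. P-values therefore measure the spread between libraries, which may be partly technical.

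Integrins are pairs of an alpha and a beta chain that span the cell membrane, and beta-2 integrins are found on leukocytes. Itgb2 encodes CD18, the beta chain that all 4 alpha chains need to reach the cell surface. Itgal encodes CD11a of LFA-1, by which lymphocytes and myeloid cells bind ICAM adhesion molecules. Itgam encodes CD11b of Mac-1, a receptor of monocytes, macrophages and neutrophils for ICAM-1, fibrinogen and complement fragments. Itgax encodes CD11c, widely used as a marker of dendritic cells and also carried by macrophages of atherosclerotic vessels. Itgad encodes CD11d, known from tissue macrophages. In an artery wall these receptors take part in leukocyte adhesion, migration and uptake of coated particles.

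In the GRCm38 assembly (mm10, the build of the submitters' processing notes) the GENCODE vM21 annotation places 3 of the alpha chain genes side by side on the plus strand of chromosome 7. They are Itgam (chr7:128062640-128118491), Itgax (chr7:128129547-128150657) and Itgad (chr7:128154376-128223816). The gap is 11055 bases between Itgam and Itgax and 3718 bases between Itgax and Itgad. Itgal (chr7:127296260-127335138) lies 727501 bases before Itgam, and Itgb2 (chr10:77530252-77565708) is on another chromosome. All are protein-coding.

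The promoters of the neighbours Itgax and Itgam are shown because both genes were measured side by side in every library. Each is a stretch of 300 bases around the start in RefSeq on GRCm38.p6, plus strand (chr7:128129300-128129599 for Itgax, chr7:128062390-128062689 for Itgam). Capitals mark matches, on either strand, to 3 searched motifs, TGAGTCA (bound by AP-1), GAGGAA (a core bound by PU.1 and other Ets factors) and GGGCGG (bound by Sp1), none of which overlapped.
Itgax: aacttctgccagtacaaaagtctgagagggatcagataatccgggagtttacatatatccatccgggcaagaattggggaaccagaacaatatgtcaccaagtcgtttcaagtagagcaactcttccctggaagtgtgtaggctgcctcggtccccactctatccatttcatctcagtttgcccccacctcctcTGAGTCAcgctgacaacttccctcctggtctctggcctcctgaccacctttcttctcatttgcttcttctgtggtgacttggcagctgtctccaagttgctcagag
Itgam: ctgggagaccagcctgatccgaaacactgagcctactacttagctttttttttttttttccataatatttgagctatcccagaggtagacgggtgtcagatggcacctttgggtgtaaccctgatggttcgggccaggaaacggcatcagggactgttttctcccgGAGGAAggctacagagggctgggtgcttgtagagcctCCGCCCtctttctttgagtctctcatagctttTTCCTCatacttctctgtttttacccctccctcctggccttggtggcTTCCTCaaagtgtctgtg
The Itgax window held 1 match to TGAGTCA, 56 bases before the start. A match to this motif was found in 5.20% of the 32851 promoters in the RefSeq table. The Itgam window held 3 matches to GAGGAA, at 84 and 15 bases before and 32 bases after the start, and 1 to GGGCGG, 47 bases before it. These motifs were found in 28.3% and 35.7% of all promoters. The matches are letters in these windows and no measure of binding.

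Total counts ranged from 289166 to 27742113 per library. YFP replicate 6 was the shallowest, and the next shallowest library had 9790946. Libraries numbered 1 and 2 had 19245 to 21972 genes with at least 1 count, and those numbered 3 to 6 had 13150 to 18961. Ptprc, the gene of CD45, was read in all 18 libraries at 438.7 to 1248 CPM, the count relative to a library size scaled by TMM. Several libraries went against their labels. Cx3cr1 was 9.43 and 0.427 CPM in the libraries labelled DP replicates 4 and 5, against 80.9 to 164.7 CPM in the GFP libraries. It was 142.3 and 133.8 CPM in the libraries labelled DN replicates 3 and 6. The library labelled YFP replicate 6 had 104.5 CPM, from 35 counts. Among the other YFP libraries, Cx3cr1 was 0.9303 CPM in replicate 1 and 26.33 to 60.74 CPM in replicates 3, 4 and 5. Cx3cr1 was thus also read clearly in these 3 libraries from a gate without GFP, at levels below every GFP library. DP replicate 5 also stood apart by a neutrophil marker sum of 38870 CPM over 9 matched genes (134.5 to 2274 CPM in the other DP libraries, 163.0 to 413.3 CPM in GFP). DN replicate 1 stood apart by a T cell marker sum of 1364 CPM over 7 genes and a B cell sum of 1219 CPM over 6 genes, and had the lowest macrophage sum, 1172 CPM over 8 genes. No gene of these 3 lists was at 0 in it. YFP replicate 1 stood apart from the other YFP libraries by the highest fibroblast and B cell sums, 10570 CPM over 8 genes and 468.2 CPM over 6 genes (850.8 to 3940 CPM and 14.7 to 92.1 CPM in the other 4), and by the lowest macrophage sum, 4091 CPM. Differences of Itgax between subsets are also given without the libraries labelled DP replicates 4 and 5 and DN replicates 3 and 6 where this moved them. Itgax itself was 38.6 and 47.8 CPM in these DP libraries and 332.1 and 297.3 CPM in these DN libraries. Leaving them out therefore moves the Itgax differences through the choice of libraries, and the values so obtained are no independent test. YFP replicate 6 was kept.

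The beta chain was the steadiest of the 5. Itgb2 had 598.5, 1370, 1912, 1260 and 892.6 CPM in YFP replicates 1, 3, 4, 5 and 6, and 1093, 838.2, 836.0 and 497.3 CPM in DP replicates 1, 2, 4 and 5. GFP libraries had 699.6 CPM at the lowest, 1035 at the median and 1475 at the highest, and DN replicates 1, 3 and 6 had 489.2, 1364 and 1479 CPM. All 4 subsets overlapped, and the 2 lowest libraries were DN replicate 1 and DP replicate 5. Means were 1207 ± 498.8 CPM in YFP, 816.2 ± 244.4 in DP, 1091 ± 283.8 in GFP and 1111 ± 541.2 in DN (SD). Over the 18 libraries its highest level was 3.91 times its lowest, and the SD of log2(CPM + 1) was 0.558. Of 86 genes of like level (log2 mean within 0.5), 5.81% had a smaller SD. Per kilobase of exon, Itgb2 averaged 349.0 CPM, above 99.1% of 15468 genes with a length.

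Itgam was high in most libraries of every subset. It had 181.5, 697.3, 530.4, 781.7 and 382.1 CPM in the 5 YFP libraries and 831.1, 568.5, 448.1 and 287.8 CPM in the 4 DP libraries, in the order of replicates given above. GFP libraries had 267.2 CPM at the lowest, 641.1 at the median and 958.1 at the highest, and DN libraries had 126.3, 1261 and 448.4 CPM. The subsets overlapped, with the highest and the lowest of all 18 libraries both in DN. Means were 514.6 ± 241.6 CPM in YFP, 533.9 ± 229.1 in DP, 651.6 ± 240.8 in GFP and 611.8 ± 584.7 in DN (SD). The highest library was 9.99 times the lowest. Per kilobase its level averaged 115.6 CPM.

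Itgax, the gene behind the YFP reporter, varied most within YFP, DP and DN cells and little within GFP cells. It had 174.6, 379.7, 498.9, 1120 and 89.6 CPM in the 5 YFP libraries, the last from 30 counts, and 456.2, 311.3, 38.6 and 47.8 CPM in the 4 DP libraries. GFP libraries had 107.0 CPM at the lowest, 165.2 at the median and 191.2 at the highest, and DN libraries had 11.4, 332.1 and 297.3 CPM. Thus 3 of the 5 YFP libraries were above every GFP library, while YFP replicate 6 was below all of them. DP replicates 1 and 2 were above every GFP library, DP replicates 4 and 5 were below, and the libraries labelled DN replicates 3 and 6, from a gate without YFP, were above. Means were 452.6 ± 406.9 CPM in YFP, 213.5 ± 205.3 in DP, 153.2 ± 36.3 in GFP and 213.6 ± 176.0 in DN (SD). No neighbours in this order of subset means (YFP, DN, DP, GFP) were free of overlap, and the same held for the other 4 chains. The highest library was 98.3 times the lowest. The SD of log2(CPM + 1) was 1.52, and 95.6% of 684 genes of like level had a smaller one. Per kilobase Itgax averaged 54.1 CPM. The highest and the lowest library for Itgax were YFP replicate 5 and DN replicate 1. They were also the highest and the lowest in summed macrophage markers, at 56140 and 1172 CPM. They had the lowest and the highest TMM factors as well, 0.4448 and 1.752. The factor raises every CPM of the first and lowers every CPM of the second. Over total counts alone, Itgax was higher in DP replicate 1 (5484 of 10644558) than in YFP replicate 5 (11233 of 22549117). The top rank and the range of 98.3 times thus depend on the scaling, and the macrophage sums carry the same factors. The macrophage sum ran from 4091 to 56140 CPM in YFP and 6225 to 40150 in DP. It was 12800 to 31810 CPM in GFP and 1172 to 28470 in DN. DP replicate 5, with 47.8 CPM of Itgax, had 40150. Summed dendritic cell markers (8 genes) were 77.6 CPM at the lowest, 440.3 at the median and 626.1 at the highest in YFP, 53.2, 488.3 and 661.8 CPM in DP, 35.2, 76.7 and 338.3 CPM in GFP and 78.4, 184.6 and 507.0 CPM in DN. All 8 were higher in YFP than in GFP cells (median log2 fold change 1.44 beside 0.04 over all genes) and in DP than in GFP cells (1.31 beside 0.20). None was called, beside 0% of all genes in YFP versus GFP and 0.198% in DP versus GFP. Clec9a was at 0 in YFP replicates 5 and 6 and GFP replicate 6, and Flt3 in YFP replicate 6. The part of either cell type in the Itgax level was not tested.

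Itgal varied even more, in another pattern. It had 90.2, 56.7, 41.1, 1.20 and 77.6 CPM in the 5 YFP libraries and 33.9, 24.2, 184.8 and 70.6 CPM in the 4 DP libraries. GFP libraries had 31.8 CPM at the lowest, 80.7 at the median and 151.7 at the highest, and DN libraries had 371.6, 43.4 and 17.98 CPM. The subsets overlapped, and the extremes were YFP replicate 5, at 12 counts, and DN replicate 1. The 3 highest libraries of Itgal (DN replicate 1, DP replicate 4 and GFP replicate 1) were also the 3 highest in the summed T cell markers, at 1364, 331.6 and 253.7 CPM. That sum was 21.4 to 139.4 CPM in YFP, 16.1 to 331.6 in DP, 14.7 to 253.7 in GFP and 18.9 to 1364 in DN. By this sum the match did not hold throughout, as YFP replicate 5, the lowest library for Itgal, had the highest T cell sum in YFP, 139.4 CPM. Single markers differed from that sum, which its TMM factor of 0.4448 raises. Lck was at 0 in YFP replicate 5, and Cd3e was 19.7, 1.95, 0.756, 1.50 and 2.99 CPM in the 5 YFP libraries. The part of T cells in the Itgal level was not tested. In such bulk libraries more cells of a type and more RNA per cell cannot be told apart. Means were 53.4 ± 34.7 CPM in YFP, 78.4 ± 73.7 in DP, 83.9 ± 43.7 in GFP and 144.3 ± 197.2 in DN (SD). Its SD of log2(CPM + 1) was 1.57, and 93.3% of 1809 genes of like level had a smaller one. Per kilobase it averaged 12.8 CPM.

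Itgad was near the floor of detection. It had 4.28, 2.09, 0.378, 0.299 and 5.97 CPM in the 5 YFP libraries, the last from 2 counts, and 0.832, 2.44, 0.166 and 0.640 CPM in the 4 DP libraries. GFP libraries had 0 CPM at the lowest, 0.384 at the median and 2.53 at the highest, and DN libraries had 2.01, 0.293 and 0.0734 CPM. Its level of 0.288 CPM per kilobase was above that of only 22.8% of genes. Itgad and Itgax share 384 exact 50-base windows of exon sequence (8.43% and 8.02% of their windows), so reads there are uncertain. YFP replicate 5, with 11233 counts of Itgax, had 3 of Itgad. The annotation also holds antisense genes within Itgad, among them Cox6a2 (0 to 26.9 CPM), and the strand setting of the counting is not given in the sources used here. Itgam shares 66.3% of its windows with Gm49368, a gene model over the same exons that has no row in the table.

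**Figure D1:**
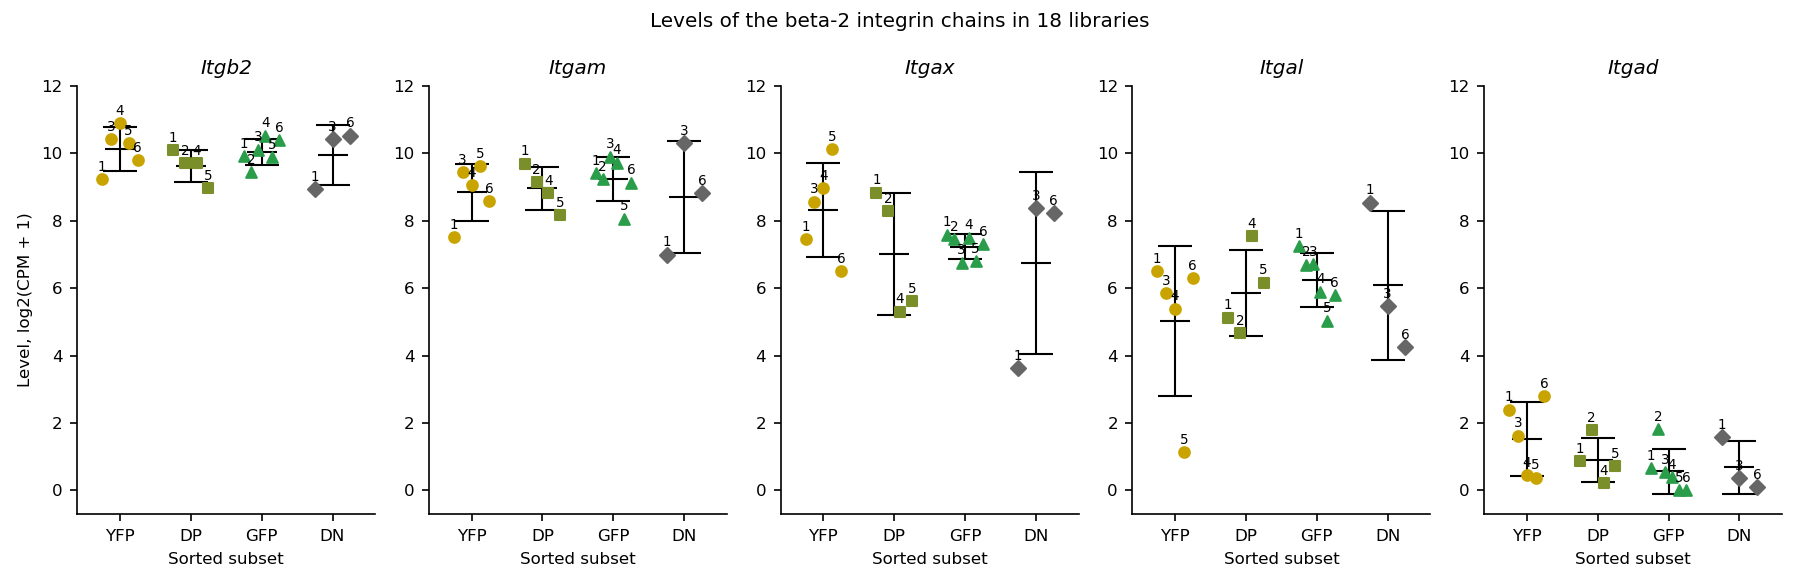
Level of each chain as log2(CPM + 1) in every library, by sorted subset, with replicate numbers beside the points and black bars for the mean and SD. Itgb2 points lie close together in all subsets, while Itgax and Itgal spread widely in YFP, DP and DN. Itgad is the lowest chain in every library, at 0 to 5.97 CPM.

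Levels of different chains were compared per kilobase of exon within each library. The 4 alpha chains together, per kilobase, came to 0.260 to 0.942 times Itgb2, so the beta chain exceeded their sum in all 18 libraries. Itgam was the largest alpha chain in 15 of 18 libraries, Itgax in YFP replicates 1 and 5 and Itgal in DN replicate 1. The share of Itgax among alpha chains was 41.7%, 34.8%, 48.1%, 59.9% and 17.3% in the 5 YFP libraries and 35.7%, 35.6%, 6.41% and 12.7% in the 4 DP libraries. It was 9.73% at the lowest and 28.3% at the highest in GFP, and 2.81%, 21.2% and 40.2% in DN. The first 4 YFP libraries thus had a larger share of Itgax than any GFP library, and the fifth did not. The mean share was 40.4 ± 15.9% in YFP, 22.6 ± 15.3% in DP, 19.7 ± 6.06% in GFP and 21.4 ± 18.7% in DN (SD). The share of Itgal was under 23% in every library but DN replicate 1, where it was 66.9%.

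**Figure D2:**
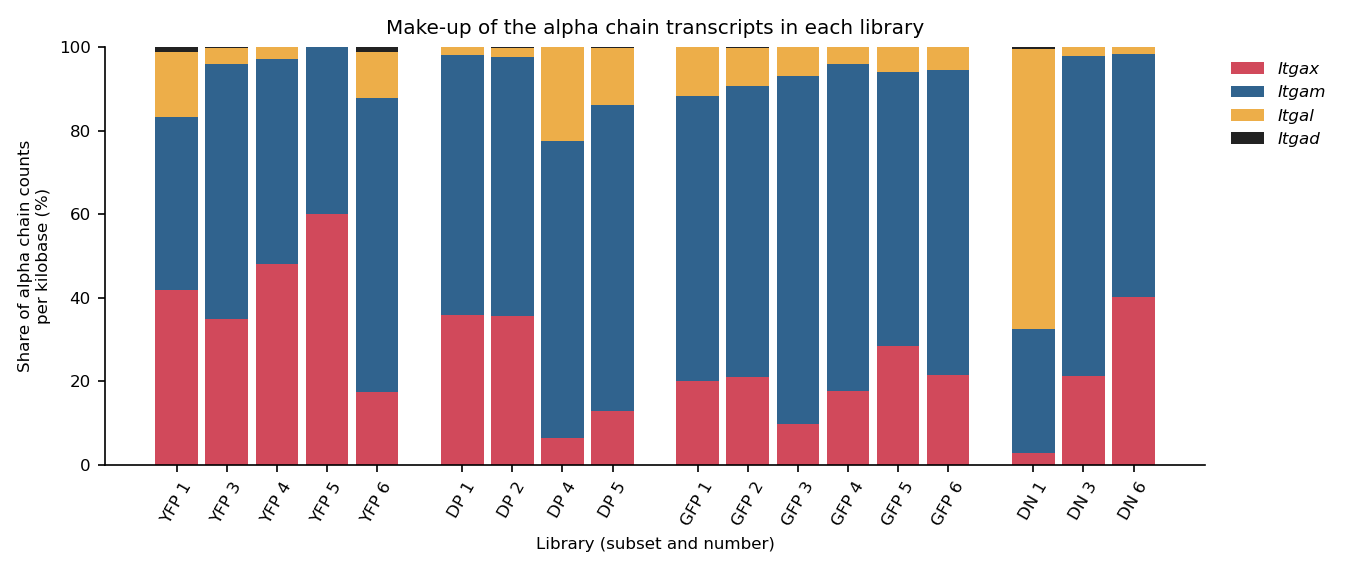
Share of each alpha chain in the summed alpha chain counts per kilobase of exon (percent, stacked to 100), 1 bar per library. Itgam is the largest part of 15 bars, Itgax is the largest in YFP 1 and YFP 5 at 41.7% and 59.9%, and Itgal is the largest in DN 1 at 66.9%.

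The first comparison, of YFP with GFP cells, asks whether cells marked by the CD11c reporter alone differ in these chains from those marked by the Cx3cr1 reporter alone. Itgax was the chain with the smallest p, with a log2 fold change of 1.57 ± 0.70 (SE) and 4 of 5 YFP libraries above the GFP median, but it did not pass (edgeR quasi-likelihood test, adjusted p = 0.67). Log2 fold changes were 0.15 ± 0.42 for Itgb2, -0.34 ± 0.51 for Itgam, -0.67 ± 0.77 for Itgal and 1.82 ± 1.28 for Itgad (adjusted p of 0.91 to 0.98). No member was called (0% of 17143 genes were), and 1 of 5 had an unadjusted p under 0.05, as did 7.02% of all genes. DESeq2 called 176 genes (1.29%) and limma voom 462 (2.69%), and neither called a member. Without YFP replicate 5 the log2 fold change of Itgax was 0.89, and over all libraries left out in turn it was 0.89 to 2.06. It was 1.885 within numbers 3 to 6 (edgeR, adjusted p = 0.41). Within numbers 1 and 2, where YFP replicate 1 alone stood for YFP, it was 0.10. The value of Itgad was 3.04 without GFP replicate 2 and 1.21 without YFP replicate 1 (adjusted p = 0.58 and 0.77).

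DP cells were set against GFP cells, which share the Cx3cr1 reporter and lack YFP. No member was called, beside 34 genes in all (0.198%), and none had an unadjusted p under 0.05, as 6.84% of all genes did. DESeq2 called 340 genes (2.94%) and limma voom 3445 (20.1%), with no member. Itgax had a log2 fold change of 0.48 ± 0.73 (edgeR, adjusted p = 1). The 4 DP libraries did not go one way. The value was -0.21 without DP replicate 1, and it was 1.55 without the libraries labelled DP replicates 4 and 5 and DN replicates 3 and 6 (adjusted p = 1), and -1.65 within numbers 3 to 6 (adjusted p = 0.26). The other 4 chains had adjusted p-values of 1.

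YFP cells against DP cells gave a log2 fold change of 1.09 ± 0.78 for Itgax (edgeR, adjusted p = 0.98), and Itgb2, Itgal, Itgam and Itgad had adjusted p-values of 1. No member was called (0% of all genes by edgeR) and none had an unadjusted p under 0.05, as 6.73% of genes did. DESeq2 called 118 genes (0.952%) and limma voom none (0%), again with no member. For Itgax 1 library decided most of the value, which was 0.17 without YFP replicate 5 and 1.77 without DP replicate 1 (adjusted p = 1.0 and 0.69). It was 0.30 without DP replicates 4 and 5 and DN replicates 3 and 6 (adjusted p = 0.97), 3.54 within numbers 3 to 6 (adjusted p = 0.089) and -1.04 within numbers 1 and 2 (adjusted p = 0.19). The 3 subsets were compared pairwise, and YFP and DP were set against the same GFP libraries.

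Against DN cells, which carried neither reporter, no member was called in YFP, DP or GFP cells (0% of all genes by edgeR in each comparison). None had an unadjusted p under 0.05, as 2.69% of genes did in YFP versus DN, 2.71% in DP versus DN and 1.35% in GFP versus DN. DESeq2 called 6 genes (0.0401%) in YFP versus DN, 25 (0.209%) in DP versus DN and 0 (0%) in GFP versus DN, limma voom called none (0%) in any of them, and no member was among these. Itgax had log2 fold changes of 1.09 ± 0.87 in YFP versus DN, -0.00068 ± 0.87 in DP versus DN and -0.48 ± 0.79 in GFP versus DN (edgeR, adjusted p = 1 each). These rest on DN replicates 3 and 6. Without them and DP replicates 4 and 5, DN replicate 1 alone stood for DN, assumed to vary like the other groups. Itgax then had log2 fold changes of 5.11 in YFP, 4.80 in DP and 3.25 in GFP (adjusted p = 0.24, 0.50 and 0.50). The lymphocyte marker sums of that 1 library are given above.

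The YFP reporter itself was tested by setting YFP and DP cells against GFP and DN cells. Itgax was 0.78 ± 0.56 log2 units higher in the reporter-positive subsets (edgeR, adjusted p = 0.95). No member was called (0% of genes), and none had an unadjusted p under 0.05, as 6.81% of genes did. DESeq2 called 176 genes (1.47%) and limma voom 5 (0.0292%), with no member. Without the 4 libraries named above, which themselves were low (DP) or high (DN) in Itgax, the value was 3.33. Within numbers 3 to 6 it was -0.48 (adjusted p = 0.67). Whether the difference by YFP depended on GFP was tested as an interaction, which was -0.61 ± 1.12 for Itgax (edgeR, adjusted p = 1). No member was called there either (0% of genes), and none had an unadjusted p under 0.05, as 3.30% of genes did. DESeq2 called 12 genes (0.108%) and limma voom 1 (0.00583%), with no member, and DESeq2 gave Itgad no adjusted p.

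Members were called in 1 alternative, among the 6 libraries numbered 1 and 2, which include none of the 4 libraries labelled DP replicates 4 and 5 and DN replicates 3 and 6. YFP and DN were there 1 library each, assumed to vary like the other groups. The values below are thus of single libraries, YFP replicate 1 and DN replicate 1, which both stood apart by marker sums (above), and many genes were called. Itgam was lower in YFP replicate 1 than in the 2 GFP libraries (log2 fold change -1.65 ± 0.46, adjusted p = 0.016, with 7.83% of all genes called). Itgal was lower in DP than in GFP cells, with 2 libraries each (-2.07 ± 0.38, adjusted p = 0.00056, 1.33% of genes called), at 33.9 and 24.2 CPM in DP and 151.7 and 102.9 CPM in GFP. In YFP replicate 1 versus DP Itgal was higher (1.73) and Itgam lower (-1.85, 8.15% of genes called). Against DN replicate 1, Itgax was higher and Itgal lower in YFP replicate 1 (3.89 and -2.08, 9.84% called), a difference between 2 libraries, in DP (4.94 and -3.81, 14.1% called) and in GFP (3.79 and -1.75, 12.5% called), and Itgam was higher in DP (2.33) and GFP (2.14). By YFP reporter Itgax was higher (2.52) and Itgal lower (-2.08, 8.98% called), and the interaction was -2.75 for Itgax (3.7% called). Within numbers 3 to 6 no member was called in any comparison.

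**Figure D3:**
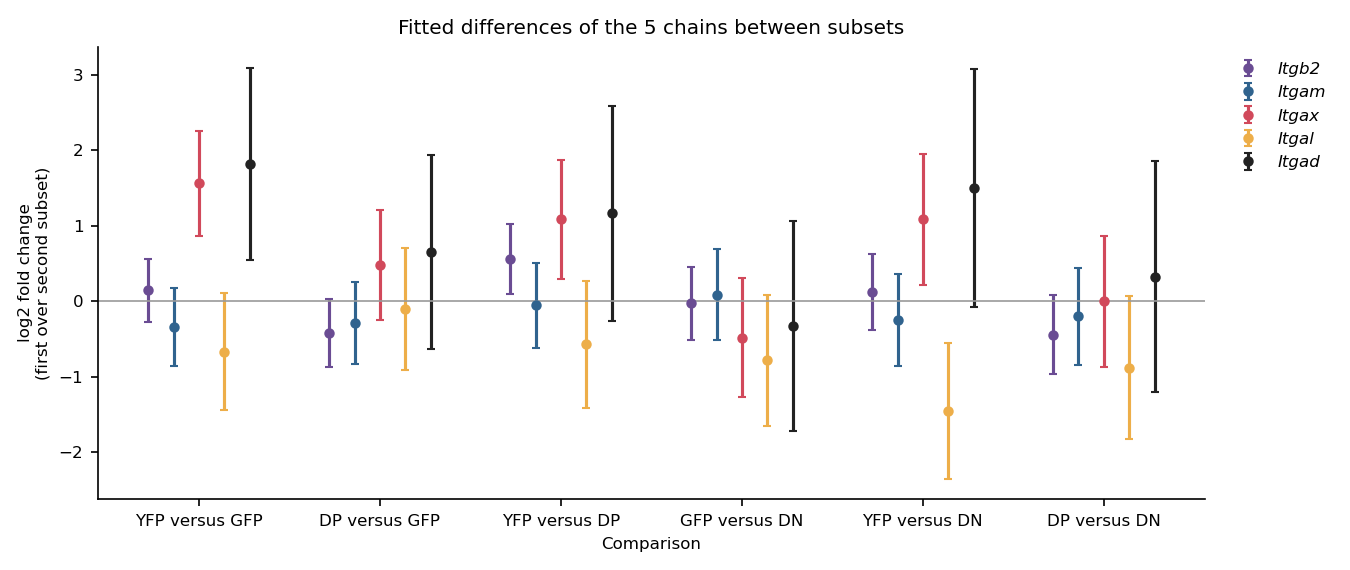
Log2 fold change of each chain in the 6 pairs of subsets, first subset over second, with bars of 1 standard error (edgeR). Itgax is at 1.57 in YFP versus GFP, and no chain passed adjusted p of 0.05 in any pair.

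A ratio within a library depends little on its scaling, so Itgax was also taken relative to Itgam and Itgb2, as log2 of (CPM + 1). Itgax over Itgam was -0.06, -0.88, -0.09, 0.52 and -2.08 in the 5 YFP libraries and -0.86, -0.87, -3.50 and -2.56 in the 4 DP libraries. It was -3.15 to -1.27 in GFP and -3.36, -1.92 and -0.59 in DN. The first 4 YFP libraries were above every GFP library and the fifth was within their range. The mean was -0.52 ± 1.005 in YFP and -2.01 ± 0.63 in GFP (SD), a difference of 1.50 (exact two-sided permutation test, p = 0.022, adjusted over 18 ratios of Itgax to an alpha chain p = 0.39). Without YFP replicate 6, the YFP library within the GFP range, the difference was 1.89 (exact p = 0.0095, adjusted p = 0.17). This exact p is the smallest that 4 libraries against 6 allow. YFP replicate 5, with the highest ratio (0.52), was kept there. Itgax over Itgb2 averaged -1.81 ± 1.11 in YFP and -2.82 ± 0.53 in GFP, a difference of 1.013 (exact p = 0.069, adjusted over 24 ratios to Itgb2 p = 0.83).

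Itgax over Itgb2 showed the DP libraries on both sides of GFP, at -1.26 and -1.43 in DP replicates 1 and 2 and -4.40 and -3.35 in DP replicates 4 and 5, against -3.36 to -2.001 in GFP. Over the 4 libraries DP cells differed from GFP cells by 0.21 (exact p = 0.74, adjusted p = 0.99). Between YFP and DP cells Itgax over Itgb2 differed by 0.80 (exact p = 0.41, adjusted p = 0.95) and Itgax over Itgam by 1.43 (exact p = 0.13, adjusted p = 0.76). Without DP replicates 4 and 5 and DN replicates 3 and 6 these differences were -0.46 and 0.35. Itgam over Itgb2 averaged -1.29 ± 0.49 in YFP, -0.66 ± 0.23 in DP and -0.81 ± 0.64 in GFP (SD). Its difference was -0.63 for YFP against DP (exact p = 0.063, adjusted p = 0.83) and -0.48 for YFP against GFP (exact p = 0.19, adjusted p = 0.95). Itgax over Itgal differed by 2.29 between YFP and GFP (exact p = 0.12, adjusted p = 0.76). Of 42 ratio tests 1 had an unadjusted p under 0.05 and 0 passed after adjustment. The smallest p these designs allow is 0.0043 for YFP against GFP and 0.057 for DP against DN.

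**Figure D4:**
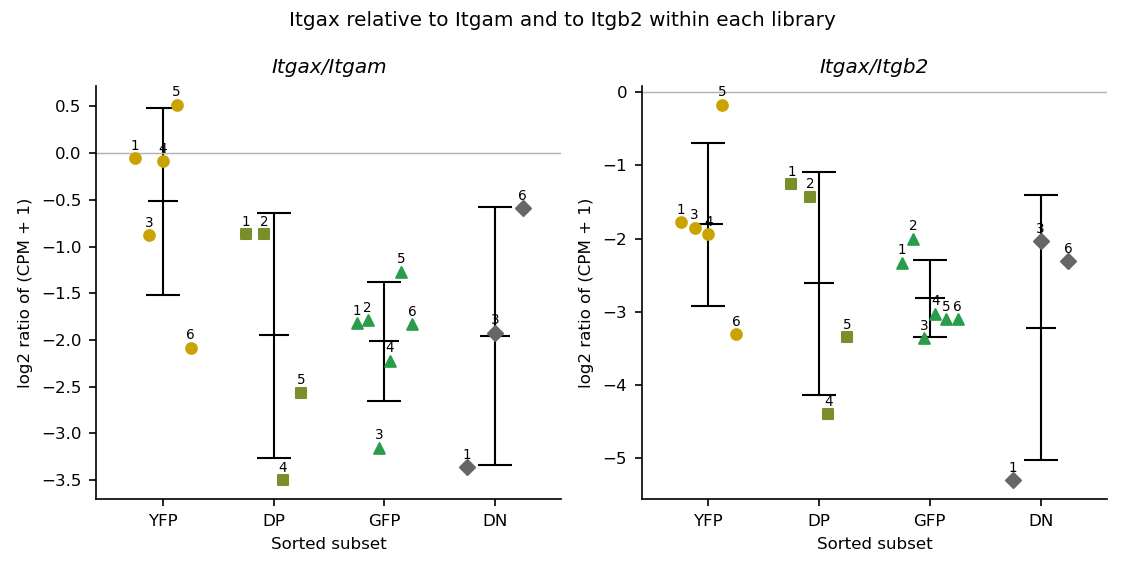
Log2 ratio of Itgax to Itgam and to Itgb2, from CPM + 1, in each library by subset, with replicate numbers and black bars for the mean and SD. YFP libraries 1, 3, 4 and 5 lie above all 6 GFP libraries for Itgax/Itgam, and YFP 6 at -2.08 lies among them.

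Whether Itgax follows the other chains was asked across the 18 libraries on log2(CPM + 1), with 7 correlations and permutation tests of 100000 resamples, adjusted over the 7. The permutations treat all 18 libraries as free to trade places. Whether libraries of 1 number are related is not known, and these p-values may be too small. Itgax and Itgb2 varied together from library to library (Pearson r = 0.70, adjusted permutation p = 0.0034; Spearman rho = 0.66, adjusted p = 0.014). Without DN replicate 1 and YFP replicate 5, the libraries farthest from the Itgax median, r was 0.61 (permutation p = 0.012). Itgax and Itgam had r = 0.65 (adjusted permutation p = 0.0062) and rho = 0.56 (adjusted p = 0.029), but r was 0.43 without those 2 libraries (permutation p = 0.094), so this relation rests on them. Itgax and Itgal went opposite ways, with r = -0.78 (adjusted permutation p = 0.0018) and rho = -0.69 (adjusted p = 0.012), and r = -0.59 without the same libraries (permutation p = 0.015). Itgax and Itgad had r = -0.15 and rho = -0.05 (adjusted permutation p = 0.55 and 0.83), and r = 0.05 without those libraries (permutation p = 0.86).

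These relations were also taken apart by subset. Correlations of deviations from the subset means, over the same 18 libraries and as a description, were 0.71 for Itgax with Itgb2, 0.75 with Itgam and -0.77 with Itgal. A correlation within a subset was computed for the 6 GFP libraries alone, as the other subsets had at most 5. In GFP Itgax had r = 0.01 with Itgb2, 0.32 with Itgam and 0.43 with Itgal (exact permutation p = 0.98, 0.59 and 0.36), with Itgax at 107.0 to 191.2 CPM. In the 5 YFP libraries, taken from the lowest to the highest in Itgax (89.6 to 1120 CPM), Itgal was 77.6, 90.2, 56.7, 41.1 and 1.20 CPM. Within numbers 3 to 6 r was 0.76 with Itgb2, 0.52 with Itgam and -0.78 with Itgal. Without DP replicates 4 and 5 and DN replicates 3 and 6, r was 0.64, 0.67 and -0.79 with these 3 chains. Over these 14 libraries rho was 0.52, 0.42 and -0.60 (adjusted permutation p = 0.10, 0.19 and 0.089). Leaving out DN replicate 1 and YFP replicate 5 as well gave r of 0.41, 0.30 and -0.45 (permutation p = 0.19, 0.35 and 0.14). Among the 14 libraries the relations thus rest largely on those 2. Itgb2 itself had r = 0.69 with Itgam (rho = 0.58), -0.49 with Itgal (rho = -0.54) and -0.50 with Itgad (rho = -0.49; adjusted permutation p of r = 0.0034, 0.045 and 0.045, of rho = 0.029, 0.034 and 0.045). Without its 2 farthest libraries, DN replicate 1 and DP replicate 5, these r were 0.52, -0.37 and -0.59 (permutation p = 0.040, 0.16 and 0.016), and the relation of Itgb2 and Itgal no longer passed. Within numbers 3 to 6 they were 0.57, -0.31 and -0.20 (adjusted permutation p = 0.11, 0.40 and 0.58), and none passed. Itgad was near the floor of detection throughout.

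**Figure D5:**
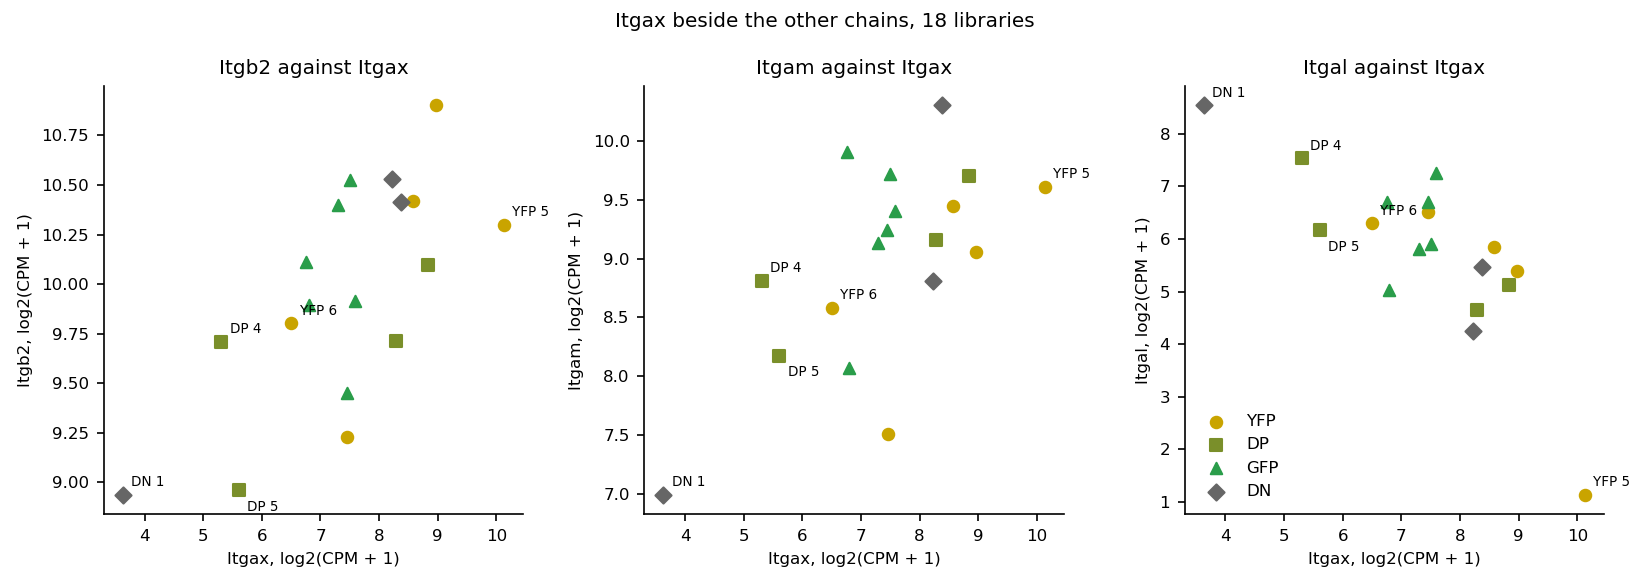
Itgb2, Itgam and Itgal against Itgax, all as log2(CPM + 1), 1 point per library with colour and shape for the subset. Itgb2 and Itgam are low where Itgax is lowest (DN 1), and Itgal runs the other way, from DN 1 at the top left to YFP 5 at the bottom right.

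All tested genes were ranked by their Spearman correlation with Itgax over the 18 libraries, as a description. Among 17142 other genes Itgb2 was at position 226 (the first 1.32%), Itgam at 484 (2.82%), Itgad at 8957 (52.3%) and Itgal at 17063 (99.5%). The order of chains was the same within numbers 3 to 6, with Itgb2 at 180 and Itgal at 16967 of 17114. The 5 genes most like Itgax, of those with a mean of at least 20 CPM, were Cdk18, a protein kinase (rho = 0.95), Anpep, the membrane aminopeptidase CD13 (0.91), Rassf3 (0.91), Apbb2 (0.90) and Mmp19, a matrix metalloproteinase (0.90). Within numbers 3 to 6 Lipa, the lysosomal acid lipase, came first (0.99). The 5 genes most like Itgb2 were St6galnac4, a sialyltransferase (0.95), Gyk, glycerol kinase (0.94), Stx3, a syntaxin of membrane fusion (0.94), Wdr1, which helps take actin filaments apart (0.93), and Pla2g15, a lysosomal phospholipase (0.93). Itgax was at position 888 (5.18%) and Itgam at 1382 (8.06%) in the ranking by likeness to Itgb2.

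The ligands of these integrins were described next, from lists chosen with earlier results of these data known. Of 11 tested ligand genes none was called in any of the 8 comparisons. Of all genes edgeR called 0.198% in DP versus GFP and 0% in the others. Ligand genes were higher in 9 cases and lower in 2 in YFP versus GFP cells, with a median log2 fold change of 0.59 beside 0.04 over all genes. Scaling by DESeq2 size factors put the median of all genes at 0.20 and that of the ligands at 0.61, again with 9 higher and 2 lower. C3, the complement component whose fragment binds Mac-1 and CD11c, averaged 1389 ± 2077 CPM in YFP, 1376 ± 1368 in DP, 231.3 ± 136.1 in GFP and 852.8 ± 507.8 in DN (SD). Its log2 fold change in YFP versus GFP was 2.59 ± 0.79 (edgeR, adjusted p = 0.34), and YFP libraries ran from 134.3 to 5063 CPM against 58.6 to 410.2 in GFP. Fibroblasts also carry C3, and all 8 fibroblast markers were higher in YFP than in GFP cells (median log2 fold change 2.72, none called), with sums of 850.8 to 10570 CPM in YFP and 241.3 to 1051 CPM in GFP. Of 7 endothelial markers 6 were higher (median 1.97, none called), with sums of 53.7 to 259.4 CPM in YFP and 19.1 to 55.4 CPM in GFP. No fibroblast marker was at 0 in any library, and the part of fibroblasts and endothelial cells in the ligand levels was not tested. Icam1, the main ligand of LFA-1 and Mac-1, averaged 694.7 ± 213.8 CPM in YFP and 662.2 ± 226.9 in GFP (log2 fold change 0.07, adjusted p = 0.99). Vcam1, an adhesion molecule of endothelium, averaged 114.0 ± 81.0 CPM in YFP and 103.3 ± 50.7 in GFP (0.15, adjusted p = 0.99). Jam3, a junction protein that binds Mac-1, averaged 3.71 ± 3.53 CPM in YFP and 1.95 ± 0.37 in GFP (1.05, adjusted p = 0.97).

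Proteins that switch integrins on from inside the cell showed no called gene among 18 (of all genes 0.198% were called in DP versus GFP and 0% elsewhere). Among them 8 were higher and 10 lower in YFP than in GFP cells (median -0.16 beside 0.04 over all genes). With DESeq2 size factors 10 were higher and 8 lower (median 0.06 beside 0.20 over all genes). Rassf5, an effector by which Rap1 activates LFA-1, averaged 58.9 ± 33.7 CPM in YFP and 117.2 ± 23.0 in GFP, with a log2 fold change of -1.01 ± 0.55 (edgeR, adjusted p = 0.78). Itgb1bp1, a binder of the beta-1 tail, averaged 60.2 ± 71.7 CPM in YFP and 34.8 ± 11.7 in GFP (0.81, adjusted p = 0.94). Fermt3, the leukocyte kindlin that activates beta-2 integrins, averaged 545.0 ± 374.0 CPM in YFP and 481.1 ± 105.4 in GFP (0.18, adjusted p = 0.98). Rap1b, a small GTPase upstream of talin, averaged 1001 ± 406.9 CPM in YFP and 1136 ± 413.5 in GFP (-0.18, adjusted p = 0.98). Flna, a filamin that competes for the beta tail, averaged 488.8 ± 345.1 CPM in YFP and 844.8 ± 585.2 in GFP (-0.79, adjusted p = 0.95).

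Of 13 genes that signal downstream of bound integrins none was called in any comparison (of all genes 0.198% were called in DP versus GFP and 0% elsewhere). Under both scalings 4 were higher and 9 lower in YFP than in GFP cells. The median was -0.40 beside 0.04 over all genes, or -0.24 beside 0.20 with DESeq2 size factors. The adaptor Tyrobp averaged 1717 ± 2278 CPM in YFP and 876.9 ± 413.5 in GFP (log2 fold change 0.97, adjusted p = 0.95). The adaptor Fcer1g averaged 1240 ± 1445 CPM in YFP and 796.1 ± 419.1 in GFP (0.64, adjusted p = 0.98). Vav1, an exchange factor for Rac, averaged 375.3 ± 140.1 CPM in YFP and 495.1 ± 150.4 in GFP (-0.40, adjusted p = 0.98). The Tec-family kinase Btk averaged 74.0 ± 89.2 CPM in YFP and 39.2 ± 8.72 in GFP (0.93, adjusted p = 0.87).

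Of 9 transcription factors known from promoters of these integrin genes, 8 were in the table and none was called (of all genes 0.198% were called in DP versus GFP and 0% elsewhere). In YFP versus GFP 3 were higher and 5 lower (median -0.24 beside 0.04 over all genes), or 4 and 4 with DESeq2 size factors (median -0.10 beside 0.20). In the YFP reporter comparison all 8 were lower in the positive subsets (median -0.23 beside 0.14 over all genes), with no adjusted p below 0.71, and 6 of 8 with DESeq2 size factors (median -0.16 beside 0.29). Irf8, a factor of monocyte and dendritic cell development, averaged 340.1 ± 94.3 CPM in YFP and 294.1 ± 46.8 in GFP (adjusted p = 0.98). Runx1 averaged 76.0 ± 29.3 CPM in YFP and 129.0 ± 29.0 in GFP (adjusted p = 0.87), and Runx3 44.1 ± 9.79 CPM in YFP and 66.4 ± 26.4 in GFP (adjusted p = 0.97). Ets1, which lymphocytes carry, averaged 28.8 ± 35.1 CPM in YFP, 51.1 ± 45.9 in DP, 54.1 ± 39.7 in GFP and 268.9 ± 398.9 in DN, where its highest library had 728.7 CPM.

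Neighbours within 200 kilobases were read to see whether the loci as a whole differed between YFP and GFP cells. Around Itgam to Itgad 5 genes had at least 20 CPM, with log2 fold changes of -0.82 to 1.66. The highest was Pycard, the inflammasome adaptor ASC (edgeR, adjusted p = 0.67), whose rho with Itgax was -0.01. Vkorc1 (1.07), Rgs10 (-0.05), Bckdk (-0.48) and Armc5 (-0.82) were the others, with rho to Itgax of -0.31 to 0.18. Around Itgal 6 such genes (Tbc1d10b, Prr14, Cd2bp2, Sephs2, Sept1 and Spn) had log2 fold changes of -0.77 to 0.90. Their rho with Itgax ran from -0.56 (Sept1) to 0.62 (Tbc1d10b). Around Itgb2 3 such genes (Pttg1ip, Ube2g2 and Sumo3) had log2 fold changes of -0.10 to 0.09. With Itgax, rho was 0.20 for Pttg1ip, 0.77 for Ube2g2, a ubiquitin-conjugating enzyme, and 0.05 for Sumo3. No neighbour was called in YFP versus GFP, where 0% of all genes were.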

How the data were processed

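The values deposited are raw read counts in whole numbers, in 1 table with 23337 gene symbols and 18 libraries. Per the labels' protocols, sorted cells went into a SMART-seq v4 and Nextera XT library preparation. The submitters' processing notes name TopHat 1.4.1, SAMtools, HTSeq 0.7.1 and mm10. Which annotation and strand setting were used is not given in the sources used here. Libraries were grouped by the subset in the labels. Totals were 289166 to 27742113 counts per library, without molecular identifiers. Every pair of libraries within a subset differed by more than sampling noise, with a lowest chi-square of 16.4 for each degree of freedom. Pairs across subsets were not compared in this way.

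The main test was that of edgeR 4.0.16 under R 4.3.3 (filterByExpr by subset, TMM, robust quasi-likelihood fit and test, 1 mean per subset, all 18 libraries), which left 17143 genes at a common dispersion of 0.890. P-values were adjusted by Benjamini-Hochberg over all genes tested, with a threshold of 0.05. DESeq2 1.42.0 and limma 3.58.1 (voom with sample weights) were alternatives, as were other scaling, no filter, a replicate block, libraries left out, and numbers 1 and 2 or 3 to 6 alone. CPM values are TMM-scaled, errors of CPM are SD, and standard errors of log2 fold changes derive from the F statistic. Ratios used a pseudocount of 1 CPM and exact permutation tests. Gene lengths are unions of exons in GENCODE vM21, whose GRCm38 assembly is that of mm10. RefSeq promoters (GRCm38.p6) held entries for Itgax and Itgam.

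The genes and lists were chosen with earlier results of these data known. Besides the 5 members, the rule named Ptprc and Cx3cr1, the 3 most abundant genes and the 2 with the smallest p in YFP versus GFP of each pathway list, the 5 genes most like Itgax and Itgb2, and neighbours with at least 20 CPM. One gene that this rule took is not reported here. Macrophage, dendritic cell, neutrophil, T cell, B cell, fibroblast and endothelial markers are given as summed CPM. The pairing of replicate numbers was checked by the correlation, between libraries of 1 number, of their deviations from subset means. The values were 0.164 to 0.342 for YFP with DP, 0.164 to 0.416 for DP with GFP and 0.570 to 0.673 for GFP with DN. YFP with GFP and YFP with DN each had a pair below 0 (-0.019 and -0.0932), both of YFP replicate 6, the shallowest library. Their other pairs were 0.410 to 0.514 and 0.449 to 0.487. The 1 pair of DP with DN was at -0.221. Libraries of different numbers were not compared in this way, so these values cannot show whether the numbers pair the subsets.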

Additional observations from a re-analysis of the deposited data

Results flagged for a closer look

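Itgad in GFP replicate 2 was 2.53 CPM, far from the other 5 GFP libraries at 0 to 0.590 CPM. It was 1 outlier among 27 groups of 4 to 6 libraries examined for the 5 chains and 4 of the ratios, where chance gives about 1 in 20. Without it the log2 fold change of Itgad in YFP versus GFP was 3.04, beside 1.82 with all libraries (adjusted p = 0.58 and 0.91).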

How the results depend on the processing

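No member was called under other scaling, without a filter, by DESeq2 or limma voom, with the replicate block (0 members in all 8 comparisons), within numbers 3 to 6, without the libraries labelled DP replicates 4 and 5 and DN replicates 3 and 6, or with any 1 library left out. The exception was numbers 1 and 2 alone, where 1 YFP and 1 DN library were assumed to vary like the rest and many genes were called (1.33% to 14.1%). There 1 member was called in YFP versus GFP, 1 in DP versus GFP, 2 in YFP versus DP, 3 in GFP versus DN, 2 in YFP versus DN, 3 in DP versus DN, 2 by YFP reporter and 1 in the interaction. Itgax then had log2 fold changes of -1.04 in YFP versus DP, 3.79 in GFP versus DN and 4.94 in DP versus DN, and Itgb2 -0.31 in YFP versus GFP. Within numbers 3 to 6 Itgax was at -1.65 in DP versus GFP and -0.48 by YFP reporter, and Itgax over Itgb2 at -0.73 in DP versus GFP. Without the 4 libraries Itgax was at 3.25 in GFP versus DN and 4.80 in DP versus DN, and Itgax over Itgb2 at -0.46 in YFP versus DP. In DP versus DN, near 0, Itgax was at 0.16 with DESeq2 size factors and by DESeq2 and 0.43 by limma voom, which gave 0.48 for the interaction. With 1 library left out, log2 fold changes of Itgax ran from -0.21 (without DP replicate 1) to 1.02 in DP versus GFP, -1.08 to 0.14 (without DN replicate 3) in GFP versus DN, -0.69 (without DP replicate 1) to 0.87 (without DN replicate 3) in DP versus DN and -1.29 to 0.26 (without YFP replicate 5) in the interaction, Itgam from -0.56 to 0.047 (without YFP replicate 1) in YFP versus GFP, and Itgax over Itgb2 from -0.24 (without DP replicate 1) to 0.81 in DP versus GFP. Adding the block left Itgax at 1.55 in YFP versus GFP (adjusted p = 0.76). The correlation of Itgax with Itgam was 0.52 within numbers 3 to 6 (adjusted permutation p = 0.15). The causes were not tested. The low depth of YFP replicate 6 limits its Itgad level, which rests on 2 counts.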
